A study of Ovis aries with 7 samples.

Results

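TIMP1, S100A4, COL3A1 and DCN are genes of the extracellular matrix and of the fibroblasts that make it, and their transcripts were followed in the hypothalamus of late-gestation fetal sheep. Of 873 genes that could be named here from the array's symbols, descriptions and accessions, all probes named as 1 of these 4 were taken. They came to 9 probes: 2 for TIMP1, 1 for S100A4, 4 for COL3A1 and 2 for DCN. TIMP1 and S100A4 were selected on the same hypoxia and control values that are described here, as genes with lower values after hypoxia, and COL3A1 and DCN were chosen beside them with those values known. Their hypoxia-to-control differences are therefore a description and carry no test.

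The hypoxia group held 3 chronically catheterized fetuses whose ewes breathed a low-oxygen gas for 30 min, followed by 30 min of normoxia. The control group held 4 catheterized, age-matched fetuses kept at normoxia for both periods. The hypothalamus was collected from each fetus at 60 min, at the end of the recovery, and its total RNA, carrying the dye Cy3, was read on a sheep oligonucleotide array from Agilent, 1 array per fetus. The exact gestational age, strain and sex are not given in the sources used here, and every fetus carried surgical catheters, so the controls are instrumented animals.

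The extracellular matrix of the brain is sparse, and most fibrillar collagen lies in the meninges and around vessels, where fibroblasts make it. TIMP1 is a secreted inhibitor of matrix metalloproteinases, the enzymes that cut collagen and other matrix proteins. S100A4 is a small calcium-binding protein, used in many tissues as a marker of fibroblasts and also made by white blood cells. COL3A1 is the chain of type III collagen, a fibrillar collagen of vessel walls and soft connective tissue, and DCN is decorin, a small leucine-rich proteoglycan that binds collagen fibrils.

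The probe sequences show which part of each transcript was read. The 2 TIMP1 probes are the same stretch moved by 1 base, with 59 of 60 bases in common, so they check the spot and not a second part of the transcript. The TIMP1 and S100A4 probes hold the polyadenylation signal AATAAA, which lies near the 3′ end of a transcript and is shown in capitals in 30 bases of each. On the probe strand, 5.63% of the 15008 probes of the array hold these letters.
TIMP1 probe 1: ccacctttcttcaagaggatgaAATAAAga
S100A4 probe 1: ctgaacaagttcAATAAAgattcttgaaag

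COL3A1 probes 1 and 4 lie in the collagen triple helix, which is built of Gly-X-Y repeats of glycine and any other residues. The glycine codons (GGN) are in capitals. Of the 15008 probes, 24 (0.16%) hold such a codon at each repeat throughout a forward frame of the probe strand, at least 6 in all. COL3A1 probe 1 holds 6 and COL3A1 probe 4 holds 7, and the longest stretch that these probes share is 9 bases.
COL3A1 probe 1: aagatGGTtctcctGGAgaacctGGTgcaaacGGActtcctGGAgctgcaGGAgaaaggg
COL3A1 probe 4: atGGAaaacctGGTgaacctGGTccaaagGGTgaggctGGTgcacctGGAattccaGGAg

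COL3A1 probes 2 and 3 are again near copies, with 58 bases in common. Their unshared bases are in capitals, and both are shown because their values differed despite the overlap.
COL3A1 probe 2: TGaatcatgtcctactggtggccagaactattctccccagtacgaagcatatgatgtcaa
COL3A1 probe 3: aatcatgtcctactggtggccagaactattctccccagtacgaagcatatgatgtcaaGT

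The DCN probes share no stretch longer than 5 bases and read different parts of the decorin transcript. S100A4 and COL3A1 probe 1 are named only by the description that the array gives for an assembled transcript, and the other 7 probes by symbol, gene ID or RefSeq accession. The scanner files place none of the 9 probes on a chromosome.

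Levels are given as log2 of the processed intensity minus the 75th percentile of the same array, so 0 is the brightness that 75% of the array's spots do not exceed and a difference of 1 is a doubling. They may be compared between arrays for 1 probe but not between probes, whose binding differs. All 9 probes were well above background on all 7 arrays. On hypoxia arrays 83.1% to 84.8% of spots were detected well above background and on control arrays 77.2% to 86.4%. Of 21 hypothalamic marker genes 15 were named here, 14 of them well above background on all 7 arrays. All hypoxia arrays lay on slide 1, and the controls lay in pairs on slide 2 (replicates 1 and 2) and slide 3 (replicates 3 and 4), with 1 scan time per slide. Each slide thus held 1 group, and hypoxia and slide 1 cannot be told apart. Over 12712 probes tested with limma, 2 passed an adjusted p of 0.05 (0.0157%), 1990 had an unadjusted p under 0.05 (15.7%), and 878 did so with a lower level after hypoxia (6.91%). The unadjusted calls split into 1112 higher and 878 lower, and into 660 higher and 321 lower on the deposited values without scaling between arrays. The balance turned under other scalings, with 932 higher and 1069 lower after median scaling, 914 and 1032 after quantile normalization and 959 and 1021 after normexp, a different background correction.

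TIMP1 was lower on every hypoxia array than on every control array. TIMP1 probe 1 had levels of 1.91, 2.16 and 2.43 after hypoxia, against 2.85, 2.75, 3.01 and 3.04 in control fetuses. The highest hypoxia array stood 0.31 below the lowest control array, and hypoxia replicate 1 was the lowest of the 7. Means were 2.17 ± 0.26 after hypoxia (SD, n = 3) and 2.91 ± 0.14 in controls (SD, n = 4), a log2 difference of -0.74 (SE 0.15) or a 1.67-fold lower level. Before scaling, the processed intensity of that probe was 9775, 9840 and 12686 on the hypoxia arrays and 14881, 13579, 23396 and 19505 on the control arrays, and the groups were apart there too.

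TIMP1 probe 2, which differs by 1 base at either end, gave nearly the same values. Its levels were 1.86, 2.09 and 2.34 after hypoxia and 2.77, 2.68, 2.88 and 2.93 in controls, a difference of -0.72 (SE 0.14). Taken as deviations from their own means, the 2 TIMP1 probes were never more than 0.04 apart on an array. The difference of TIMP1 probe 1 was -0.63 against control slide 2 alone and -0.85 against control slide 3 alone, and it was -0.61 without hypoxia replicate 1.

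S100A4 showed the largest difference of the 9 probes. S100A4 had levels of -3.44, -2.52 and -2.97 after hypoxia, against -1.99, -1.80, -1.72 and -1.99 in control fetuses. The groups were apart by 0.53, and the hypoxia arrays were spread over a wider range than the control arrays, with replicate 1 again lowest. Means were -2.98 ± 0.46 after hypoxia (SD, n = 3) and -1.88 ± 0.14 in controls (SD, n = 4), a difference of -1.10 (SE 0.21) or a 2.14-fold lower level. The processed intensity ranged from 239 to 384 on the hypoxia arrays and from 519 to 885 on the control arrays. The difference was -1.08 against control slide 2 alone, -1.12 against control slide 3 alone and -0.87 without hypoxia replicate 1. With normexp it was -0.86. A single probe was named as S100A4, so no second stretch of the transcript checks its values.

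**Figure D1:**
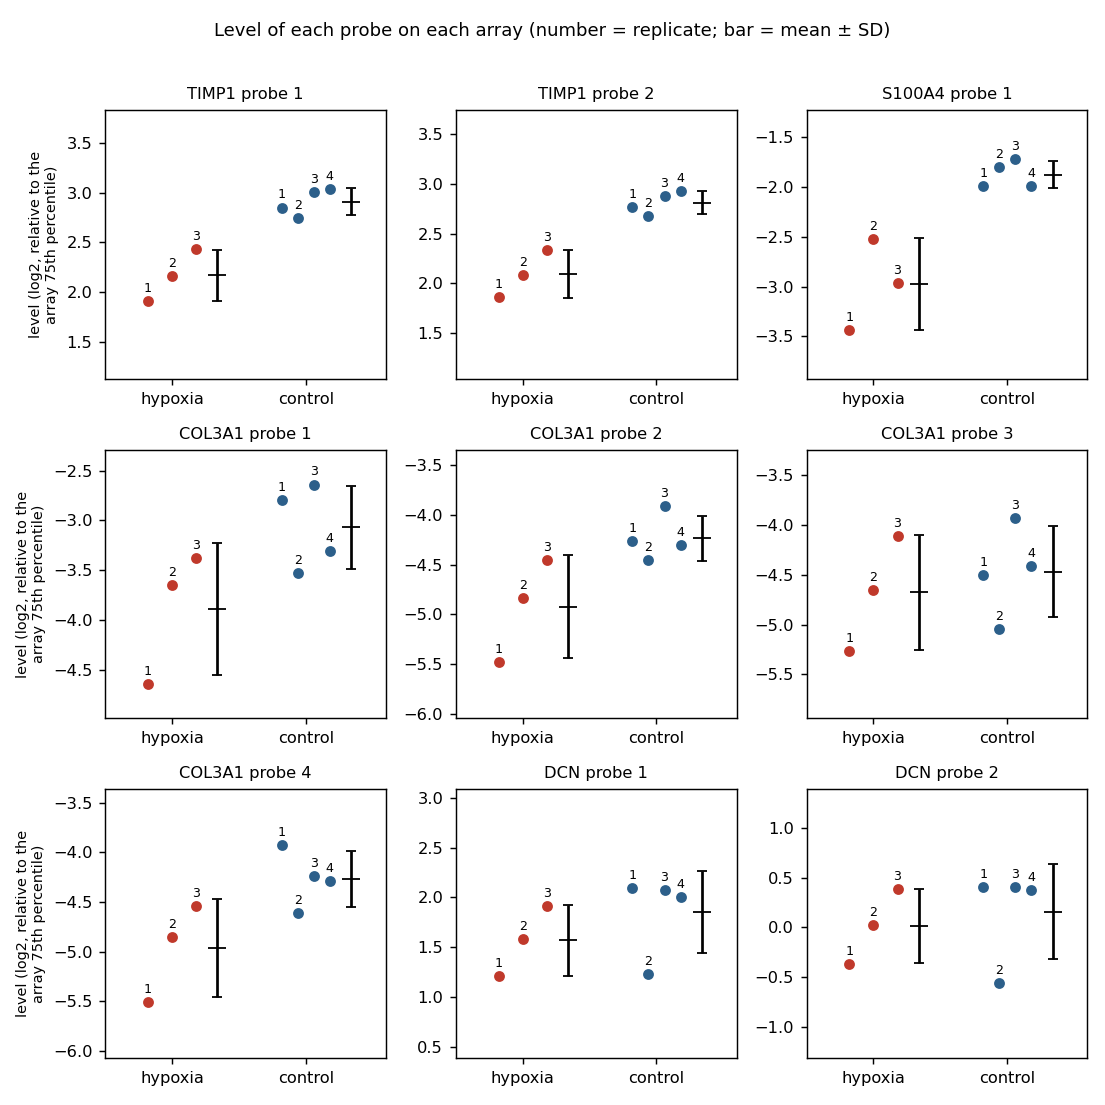
Level (log2 of the processed intensity relative to the array's 75th percentile) of each of the 9 probes on each array, hypoxia in red and control in blue, with replicate numbers beside the points and the mean ± SD as a black bar; every panel spans the same log2 range, centred on its own probe. The hypoxia points lie below all control points for both TIMP1 probes and S100A4 and, by 0.00262, for COL3A1 probe 2, and they overlap the control points in the other 5 panels.

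COL3A1 was lower on average after hypoxia at all 4 probes, but with a spread between fetuses that TIMP1 did not show. COL3A1 probe 1 had levels of -4.64, -3.65 and -3.38 after hypoxia, against -2.80, -3.53, -2.64 and -3.31 in control fetuses. Hypoxia replicate 1 was far below all others, and hypoxia replicate 3 lay above control replicate 2, so the groups overlapped. Means were -3.89 ± 0.66 after hypoxia (SD, n = 3) and -3.07 ± 0.42 in controls (SD, n = 4), a difference of -0.82 (SE 0.34) or a 1.77-fold lower level. Without hypoxia replicate 1 that difference was -0.45, little more than the SE of the full difference. With normexp and all arrays the difference was -0.64. The processed intensity of COL3A1 probe 1 was 104 to 226 on the hypoxia arrays, lowest on replicate 1, and 176 to 467 on the control arrays.

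The other triple-helix probe, COL3A1 probe 4, had levels of -5.51, -4.86 and -4.54 after hypoxia and -3.93, -4.61, -4.24 and -4.29 in controls, with hypoxia replicate 3 just above control replicate 2. Its difference was -0.70 (SE 0.25) with all arrays and -0.43 without hypoxia replicate 1. With normexp it was -0.45, and its processed intensity was 57.1 to 101 on the hypoxia arrays and 82.7 to 154 on the control arrays, close to the dim end of the array.

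COL3A1 probes 2 and 3 gave unequal differences although nearly all of their bases are shared. Both were dim, like COL3A1 probe 4. The processed intensity of COL3A1 probe 2 was 58.2 to 107 on the hypoxia arrays and 92.5 to 193 on the control arrays. That of COL3A1 probe 3 was 67.7 to 136 and 61.5 to 192. With normexp their differences were -0.49 and -0.15. COL3A1 probe 2 had levels of -5.48, -4.84 and -4.45 after hypoxia and -4.27, -4.45, -3.91 and -4.31 in controls, so the groups missed each other by only 0.00262. Its difference was -0.69 (SE 0.25) with all arrays and -0.41 without hypoxia replicate 1. COL3A1 probe 3 had levels of -5.26, -4.66 and -4.11 after hypoxia and -4.50, -5.04, -3.92 and -4.41 in controls, a difference of -0.21 (SE 0.33). The pair came apart most on control replicate 2, where their deviations differed by 0.56. In size that lies between the group differences of COL3A1 probe 2 (-0.69) and COL3A1 probe 3 (-0.21). The mean difference of COL3A1 probe 3 was 0.08 without hypoxia replicate 1 and 0.09 against control slide 2 alone, so its sign turned in both. It was -0.51 against control slide 3 alone, -0.49 without hypoxia replicate 3, -0.40 without control replicate 2 and -0.03 without control replicate 3.

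DCN overlapped between the groups at both probes. DCN probe 1 had levels of 1.21, 1.58 and 1.92 after hypoxia, against 2.09, 1.23, 2.08 and 2.01 in control fetuses. Of the control arrays 3 lay close together and above all hypoxia arrays, and control replicate 2 lay between hypoxia replicates 1 and 2. Means were 1.57 ± 0.36 after hypoxia (SD, n = 3) and 1.85 ± 0.41 in controls (SD, n = 4), a difference of -0.28 (SE 0.26). DCN probe 2 had levels of -0.36, 0.02 and 0.38 after hypoxia and 0.40, -0.56, 0.41 and 0.38 in controls, where control replicate 2 was the lowest of all 7 arrays, and its difference was -0.14 (SE 0.29).

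Single arrays decided the DCN values. Without hypoxia replicate 1 the difference was -0.10 at DCN probe 1 and 0.05 at DCN probe 2, and against control slide 2 alone it was -0.09 and 0.09. Without control replicate 2 it was -0.49 and -0.38, against control slide 3 alone -0.47 and -0.38, and without hypoxia replicate 3 it was -0.46 and -0.33. At DCN probe 2 it was -0.06 without control replicate 1, -0.06 without control replicate 3 and -0.07 without control replicate 4.

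**Figure D2:**
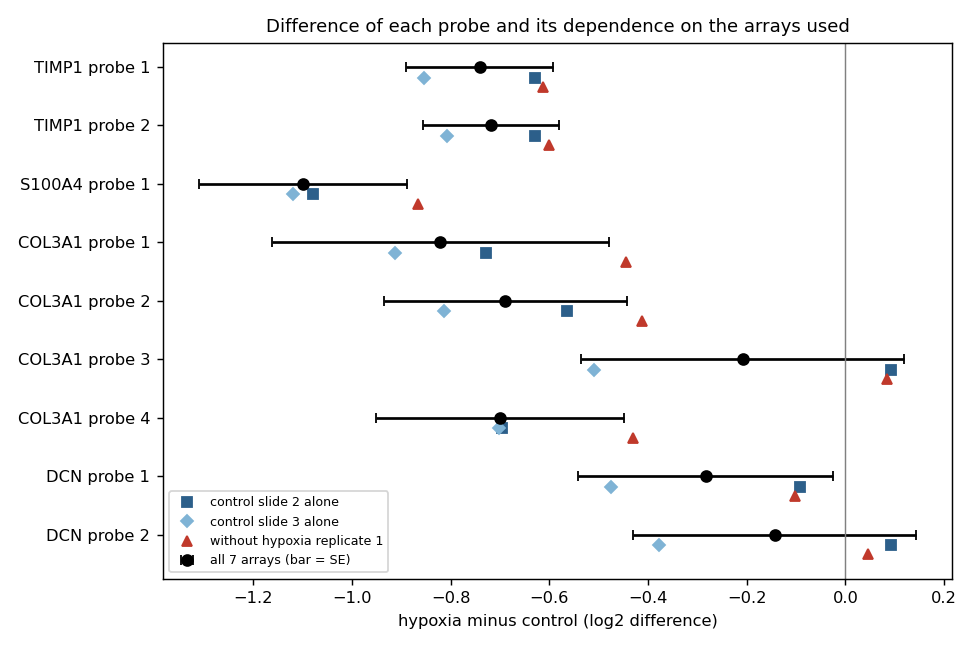
Hypoxia minus control (log2 difference) for each of the 9 probes, with all 7 arrays (black, bar = SE), with the controls of 1 slide (blue squares, slide 2; light blue diamonds, slide 3) and without hypoxia replicate 1 (red triangles). TIMP1 and S100A4 stay below 0 in all 4 settings, while COL3A1 probe 3 and DCN probe 2 lie above 0 against control slide 2 and without hypoxia replicate 1.

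Over the 9 probes together, 9 of 9 differences were below 0, against 45.3% of all probes tested, and the median difference of all probes was 0.03. All hypoxia levels lay below all control levels at 4 of the 9 probes, against 948 of the 12712 probes tested (7.46%). None of the 9 was among the 2 probes past the adjusted threshold. Because these values chose the genes, and because probes of 1 gene share their target, nothing is read from these counts.

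The 4 control arrays alone show how far the 4 transcripts differed between fetuses with no hypoxia, although the same control values were part of the contrast on which the genes were chosen. The levels on control slide 3 were set against those on control slide 2, with 2 fetuses each. In limma over 12696 probes 2 passed an adjusted p of 0.05 (0.0158%), and 1040 had an unadjusted p under 0.05. The count was 0 of the 9 probes at either threshold, but with 2 arrays a slide this fit could call few probes, so the count says nothing about how stable the 4 transcripts were. The slide 3 minus slide 2 difference was above 0 at 9 of 9 probes. It was 0.22 at TIMP1 probe 1 (SE 0.14), 0.04 at S100A4 (SE 0.17) and 0.19 at COL3A1 probe 1 (SE 0.36). At COL3A1 probe 3 it was 0.60 (SE 0.28), and at DCN probe 1 it was 0.38 (SE 0.32), both larger in size than the hypoxia difference of the same probe.

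Across the 7 arrays the 4 genes moved together to different degrees. Pearson's r between the levels of their first probes was 0.89 for TIMP1 and S100A4, 0.84 for TIMP1 and COL3A1 and 0.83 for COL3A1 and DCN. It was 0.80 for S100A4 and COL3A1, 0.67 for TIMP1 and DCN and 0.43 for S100A4 and DCN. After each group's mean was taken out, r was 0.83 for COL3A1 and DCN, 0.82 for TIMP1 and DCN and 0.76 for TIMP1 and COL3A1, but 0.37 for TIMP1 and S100A4 and 0.20 for S100A4 and DCN. Among the hypoxia arrays TIMP1, COL3A1 and DCN were lowest in replicate 1 and highest in replicate 3, whereas S100A4 was highest in replicate 2. Among the control arrays TIMP1, COL3A1 and DCN were all lowest in replicate 2, but the order of the others differed, with TIMP1 highest in replicate 4, COL3A1 in replicate 3 and DCN in replicate 1. These values describe 7 arrays that share slides and scaling.

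Marker genes of the cells that could carry these transcripts were read on the same arrays, with no test of the lists. Only 1415 of the 15008 probes were named here, so a marker that was not named may still be on the array. Of 22 fibroblast and meningeal markers, 7 were named, each well above background on all 7 arrays, and 7 of 7 were lower on average after hypoxia. The smallest differences were at PTGDS (-0.04) and COL1A1 (-0.10, and 0.09 without hypoxia replicate 1). The summed level of the 7, as a multiple of the array's 75th percentile, was 65.6 to 83.7 after hypoxia and 84.6 to 94.8 in controls. Such sums add probes whose binding differs, so the brightest probe weighs most. Here that was PTGDS, the brain's prostaglandin D2 synthase, which made up most of the sum. PTGDS alone had levels of 5.85, 6.06 and 6.17 after hypoxia and 5.98, 6.36, 5.92 and 5.99 in controls, an overlap. Its level was highest on control replicate 2, where the other markers of the list were at their lowest among the controls. The mean deviation of the 7 markers was -0.69, -0.26 and -0.05 on the hypoxia arrays, against 0.29, -0.48, 0.40 and 0.80 on the control arrays. The groups overlapped, since control replicate 2 was below hypoxia replicates 2 and 3. DCN was low in control replicate 2 as well, but S100A4 had its second highest level of all 7 arrays there. The part of the fibroblast and meningeal markers in the lower TIMP1, S100A4 and COL3A1 levels was not tested, and in pieces of whole tissue fewer cells of a type and less RNA per cell cannot be told apart.

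Within that list, IGF2, a fetal growth factor made in the meninges and choroid plexus, had levels of 0.28 to 1.62 after hypoxia and 0.45 to 3.76 in controls. COL1A2, a chain of type I collagen, had levels of -4.26, -3.98 and -3.43 after hypoxia and -3.47, -4.07, -3.27 and -2.96 in controls. Both overlapped between groups, and in both hypoxia replicate 1 and control replicate 2 were the low arrays.

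Of 20 endothelial markers 11 were named and 8 of the 11 were lower on average after hypoxia. Their summed level was 4.57 to 5.18 after hypoxia and 5.43 to 6.06 in controls. Most of that sum was 1 gene, ABCG2, with log2 levels of 1.74 to 1.77 after hypoxia and 1.85 to 2.04 in controls. SELE, the adhesion molecule of activated endothelium, was well above background on 0 of 7 arrays. Hypoxia replicate 1 stood apart with a mean deviation of -0.73, while the other 6 arrays lay between 0.02 and 0.27. That mean includes the dim genes SELE and SELP, with levels of -9.45 and -9.32 on hypoxia replicate 1. SELP was well above background on 5 of 7 arrays and ranged from -7.26 to -4.39 on the other arrays, so it weighs heavily in the mean. Of 22 markers of microglia, macrophages and granulocytes 5 were named, with sums of 0.992 to 1.21 after hypoxia and 0.892 to 1.40 in controls, and 2 of the 5 were lower. Of 18 markers of T and NK cells 7 were named, with sums of 1.03 to 1.46 after hypoxia and 0.706 to 0.834 in controls. Yet 5 of the 7 were lower. Among those 5, CD4 was well above background on 0 of 7 arrays and CD28 on 1, and LCK had a difference of only -0.03. The higher sum was that of CD247, a signalling chain of the T-cell receptor complex, with a difference of 1.17, while CD3E and CD3D, other chains of that complex, had differences of -1.08 and -0.53. Of 15 astrocyte markers 7 were named, with sums of 108 to 122 after hypoxia and 96.6 to 135 in controls, and 1 of the 7, the intermediate filament VIM, was lower. Tissue markers also differed between single arrays. Of 13 anterior pituitary markers 9 were named, with a mean deviation of 1.72 on control replicate 4 and -1.44 to 0.26 on the other arrays. Only 3 of the 9 were well above background on all 7 arrays. POU1F1, GH and FSHB were so on 0, 1 and 2 arrays, so dim values weigh in that mean. PRL had a level of 1.13 on control replicate 4, against -5.14 to -3.46 elsewhere, and OXT had -1.12 there, against 1.01 to 2.57. TTR, a marker of the choroid plexus, ran from -1.77 on hypoxia replicate 1 to 3.69 on control replicate 2. The part of these cells and tissues in the levels of the 4 genes was not tested.

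**Figure D3:**
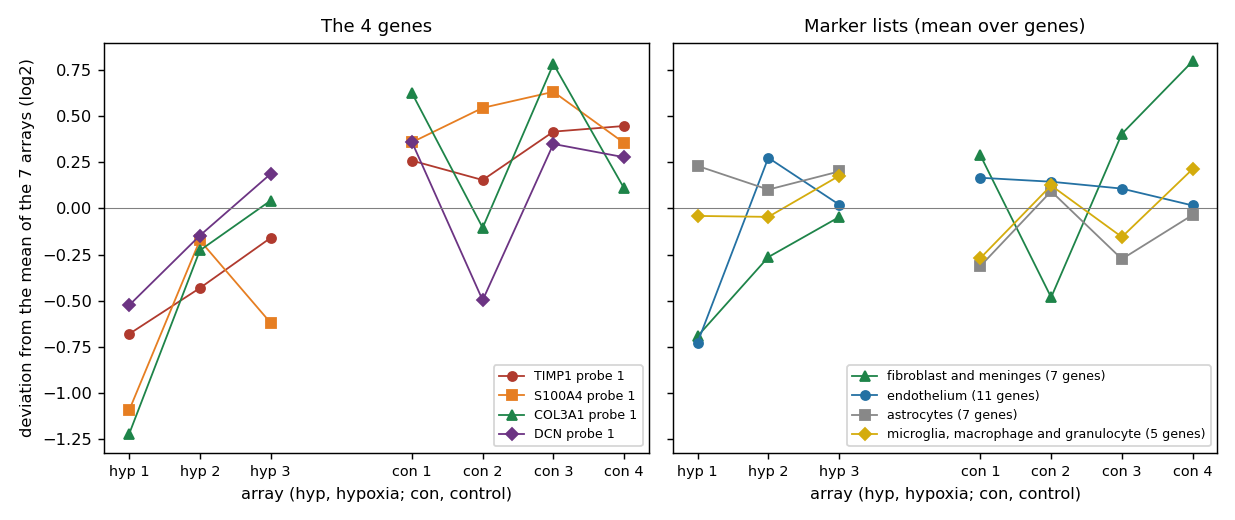
Deviation from the mean of the 7 arrays (log2) on each array, for probe 1 of each of the 4 genes (left panel) and for the mean over the genes of 4 marker lists (right panel); lines only link the points of 1 gene or list within a group. Hypoxia replicate 1 is low in all 4 genes, at -0.69 for the fibroblast and meningeal list and at -0.73 for the endothelial list, and control replicate 2 is low for DCN and for the fibroblast and meningeal list. The endothelial mean includes SELE and SELP, which were well above background on 0 and 5 of 7 arrays.

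Other genes of the matrix were read from lists of related genes. Of 57 list genes tested, none passed an adjusted p of 0.05 in limma, where 0.0157% of all probes did. At an unadjusted p under 0.05, 3 were higher and 2 lower, against 15.7% of all probes in either direction, and 26 of the 57 differences were below 0, with a median of 0.06. The direction of these counts turned with the scaling, to 1 higher and 4 lower with median scaling, 2 and 5 with quantile normalization and 2 and 4 with normexp. With normexp 30 of the 57 were below 0 and the median was -0.03.

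Among the collagens 8 of 9 differences were below 0, with a median of -0.26, but none passed either threshold. COL12A1, a collagen that binds the surface of fibrils, had levels of -1.55, -0.63 and -0.68 after hypoxia and -0.53, -1.03, -0.03 and 0.24 in controls, a difference of -0.62 (SE 0.35, adjusted p = 0.418, limma) that was -0.32 without hypoxia replicate 1. COL16A1, another fibril-associated collagen, had a difference of -0.37 (SE 0.21, adjusted p = 0.418, limma) that was -0.14 without it. Without hypoxia replicate 1 the median of the 9 collagens was 0.00 and 4 of 9 were below 0, and against control slide 2 alone it was -0.01 with 5 of 9 below 0. It was -0.49 against control slide 3 alone, -0.48 without control replicate 2 and -0.13 without control replicate 4. The negative median of the collagens thus depended on hypoxia replicate 1 and on which control slide was used.

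In the list of metalloproteinases, their inhibitors and the plasminogen system, to which TIMP1 belongs by role, 3 of 11 differences were below 0, with a median of 0.26. That median was 0.10 with normexp, 0.14 against control slide 3 alone, 0.15 against control slide 2 alone, 0.13 without hypoxia replicate 1, 0.15 without hypoxia replicate 2 and 0.39 without hypoxia replicate 3. TIMP2 and TIMP3, the other inhibitors of the family that were named here, had differences of 0.26 (SE 0.16, adjusted p = 0.446, limma) and 0.09 (SE 0.11, adjusted p = 0.712, limma), while the difference of TIMP1 was -0.74. PLAUR, the receptor of urokinase, had levels of -4.41, -4.82 and -4.66 after hypoxia and -5.05, -4.81, -5.23 and -5.01 in controls, a difference of 0.40 (SE 0.14, adjusted p = 0.269, limma). MMP14, a membrane-bound metalloproteinase that cuts collagen, had a difference of 0.50 (SE 0.21, adjusted p = 0.304, limma), but its 2 other probes had differences of -0.19 and -0.06.

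Among small leucine-rich proteoglycans 1 gene was tested beside DCN. BGN, biglycan, had levels of -3.15, -2.69 and -2.30 after hypoxia and -2.48, -2.31, -2.13 and -2.10 in controls, a difference of -0.46 (SE 0.21, adjusted p = 0.339, limma) that was -0.24 without hypoxia replicate 1. Of the S100 and annexin family 1 gene was tested, ANXA2, a membrane-binding protein of many cell types. ANXA2 had levels of 2.00, 1.93 and 2.21 after hypoxia and 2.51, 2.24, 2.48 and 2.57 in controls, so the groups did not overlap, and its difference was -0.40 (SE 0.12, adjusted p = 0.226, limma). Of 2 matrix glycoproteins, FBLN1, fibulin 1, had a difference of -0.41 at both of its probes (adjusted p = 0.349, limma, at the first), which was -0.20 without hypoxia replicate 1. SPP1, osteopontin, had -0.29 (SE 0.18, adjusted p = 0.469, limma) at one probe and 0.52 at the other.

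Of the TGF-beta and BMP pathway, a list that mixes ligands and receptors with inhibitors, 7 of 23 differences were below 0, with a median of 0.14. With normexp the median was 0.0073 with 11 of 23 below 0, and without control replicate 3 it was 0.06. FST, follistatin, a secreted inhibitor of activins, had levels of -2.12, -2.28 and -2.25 after hypoxia and -1.19, -1.80, -1.59 and -1.78 in controls. The groups did not overlap, and the difference was -0.63 (SE 0.16, adjusted p = 0.186, limma), with -0.49 at the other FST probe. TGFB2, a ligand of the pathway, had a difference of 0.36 (SE 0.15, adjusted p = 0.311, limma). Among integrins, the cell's receptors for matrix, 4 of 10 differences were below 0, with a median of 0.12. The integrins with the smallest unadjusted p were ITGB3, with a difference of 0.64 (SE 0.28, adjusted p = 0.326, limma), and ITGB6, with 0.94 (SE 0.58, adjusted p = 0.454, limma). ITGB3 was well above background on 4 of 7 arrays and ITGB6 on 5, and over the 5 integrins well above background on all 7 arrays the median was -0.17. The median of all 10 was 0.02 with quantile normalization and with normexp, 0.04 without hypoxia replicate 2, 0.03 without control replicate 1 and 0.18 without control replicate 4. It was 0.22 against control slide 2 alone and 0.06 against control slide 3 alone.

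**Figure D4:**
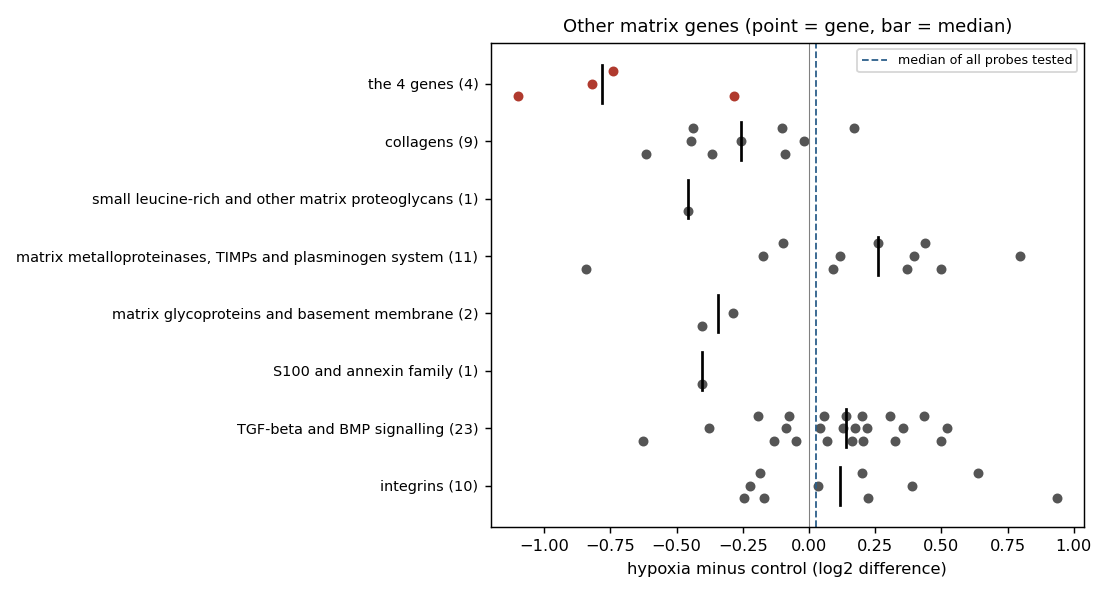
Hypoxia minus control (log2 difference) for the 4 genes (red, probe 1 of each) and for the other genes of the matrix lists (grey, 1 point a gene, number of genes in brackets), with the median of each list as a bar and the median of all probes tested as a dashed line. Of the 9 collagens 8 lie below 0 and of the 11 genes in the metalloproteinase list 3 do, and none of the 57 list genes passed the adjusted threshold.

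The named genes whose levels ran most like those of each member were found by Pearson's r over the 7 arrays, among 759 genes. Since the 4 genes were chosen for their group difference, likeness favours genes with a difference of the same sign, and r within groups is given beside it. Among 759 genes ranked over only 7 arrays, high values of r also arise between unrelated genes, and their expected size was not computed. The r within groups comes from the same arrays on which the genes were ranked, so it is no separate check. For TIMP1 the nearest were IGFBP4, a binding protein of insulin-like growth factors, with r 0.99 and 0.97 within groups, and FCGRT, the receptor that spares antibodies and albumin from breakdown, with 0.97 and 0.91 within groups. IGFBP4 had levels of 1.45, 1.65 and 1.92 after hypoxia and 2.20, 2.20, 2.46 and 2.40 in controls, a difference of -0.64 (SE 0.14), and -0.72 at its other probe. The IGFBP4 arrays thus stood in nearly the same order as the TIMP1 arrays.

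The third gene nearest to TIMP1 was CATHL3, a cathelicidin, an antimicrobial peptide that ruminants store in neutrophil granules, with r 0.96 and 0.86 within groups. CATHL3 had levels of -6.86, -6.23 and -2.82 after hypoxia, against -2.20, -1.80, -0.38 and -1.43 in control fetuses. The groups did not overlap, but hypoxia replicate 3 lay much closer to the controls than to the other hypoxia arrays, and the difference was -3.85 (SE 0.94). DNMT1, the maintenance DNA methyltransferase, was the fourth, with r 0.95 and 0.71 within groups.

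For COL3A1 the nearest were the growth factor gene TGFB1, with r 0.96 and 0.98 within groups, and LTF, lactoferrin, another neutrophil granule protein, with r 0.95 and 0.94 within groups. LTF had levels of -6.11, -5.33 and -5.23 after hypoxia and -3.92, -4.72, -3.84 and -4.82 in controls, a difference of -1.23 (SE 0.33) with no overlap. Next came FBLN1, with r 0.94 and 0.89 within groups, and the endothelial nitric oxide synthase NOS3, with r 0.93 and 0.89 within groups. CATHL3 and LTF are 1 gene each among the 4 nearest to TIMP1 and to COL3A1, and no list of neutrophil granule genes alone was examined. The mixed list of microglia, macrophages and granulocytes went both ways. LYZ and FCER1G had differences of -0.68 and -0.14, and CYBB, ITGAM and CD14 had 0.70, 0.22 and 0.15.

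For S100A4 the nearest genes were the cell-cycle kinase CDK4, with r 0.97 and 0.85 within groups, the transcription factor MYC, with 0.95 and 0.81, the lipid-droplet protein PLIN2, with 0.94 and 0.69, and the prostaglandin transporter SLCO2A1, with 0.91 and 0.81. None of them is a matrix gene. PLIN2 had levels of -1.87, -1.72 and -1.81 after hypoxia and -1.27, -1.21, -1.33 and -1.34 in controls, a difference of -0.51 (SE 0.09) with no overlap. For DCN the nearest were IGFBP6, a further binding protein of insulin-like growth factors, with r 0.94 and 0.95 within groups, the glutaredoxin GLRX2, with 0.93 and 0.93, and the collagens COL1A2, with 0.91 and 0.89, and COL16A1, with 0.90 and 0.90. IGFBP6 had levels of 0.69, 0.95 and 1.05 after hypoxia and 1.42, 0.73, 1.38 and 1.53 in controls, with control replicate 2 again low beside hypoxia replicate 1.

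**Figure D5:**
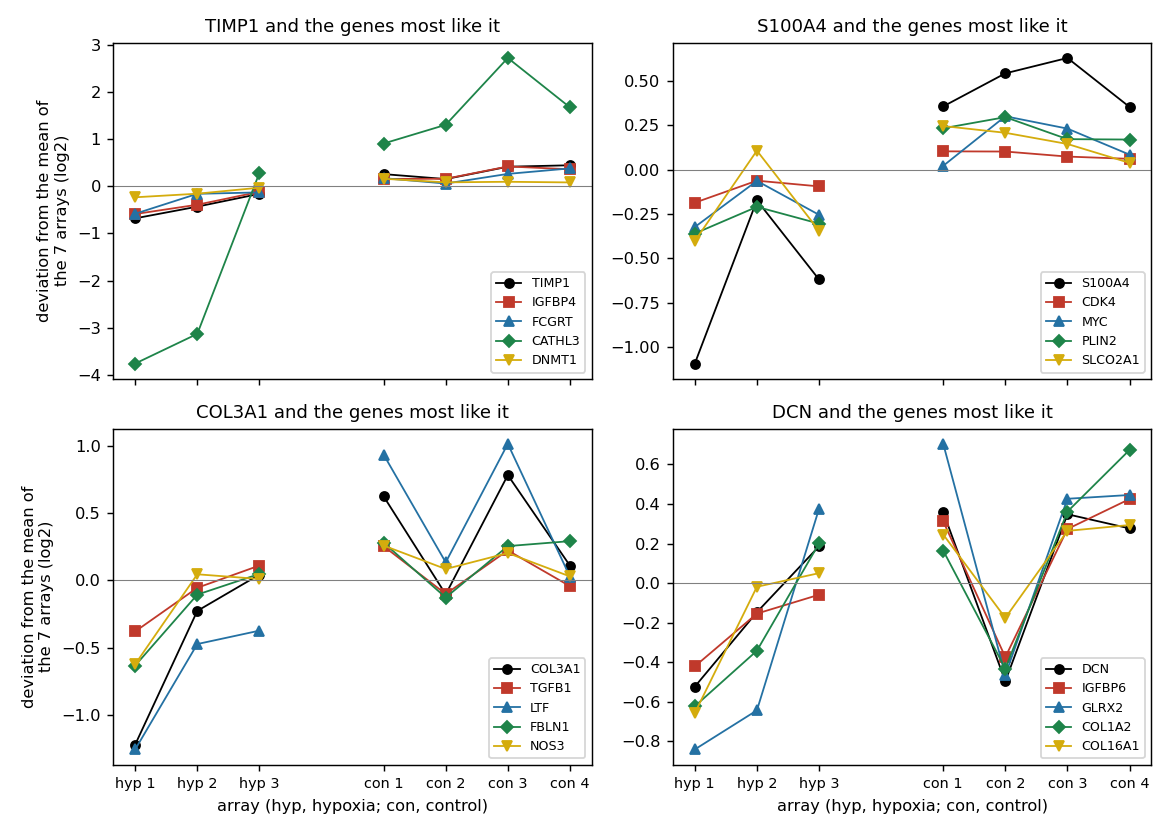
Deviation from the mean of the 7 arrays (log2) on each array for probe 1 of each of the 4 genes (black) and for the 4 named genes with the highest Pearson's r to it; lines only link the points of 1 gene within a group, and the vertical scales differ between panels. In the TIMP1 panel CATHL3 spans the widest range, with levels of -6.86 to -0.38, and in the DCN panel all 5 genes are low in control replicate 2.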

How the data were processed

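Hypothalamic RNA of 3 hypoxia and 4 control fetuses was measured, with 1 Cy3 array per fetus and group and replicate taken from each title. Per the file headers, the authors used Agilent Feature Extraction 10.1.1.1 to obtain spot intensity values, and the processed intensity is background-subtracted. The deposited value table holds log2 of that processed intensity, equal within 5e-09 on each array, unscaled and uncentred. The sources used here give no between-array normalization or test by the authors.

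Levels are log2 processed intensities minus each array's 75th percentile. Control spots and 62 outlier spot values were dropped and repeated spots averaged. Probes detected well above background on 3 or more of 7 arrays were fitted with limma 3.58.1 (R 4.3.3, lmFit and eBayes, 2-sided, Benjamini-Hochberg adjustment at 0.05). The slide comparison needed 2 of 4 control arrays. Of 15008 probes, 1415 were named from symbols, descriptions and accessions in the files, with the RefSeq table of ARS-UI_Ramb_v3.0, and 13593 were unnamed here. A gene's first probe is the one with the highest mean level. From each gene list the 2 genes with the smallest unadjusted p were named, since none passed the adjusted threshold, and for each member the 4 genes with the highest r; others named are marker or family genes chosen after their values were seen. The members and lists were chosen with earlier results of these data known. The fits were tested on 20 simulated sets with 200 changed probes each, with independent normal noise and no slide effect. The hypoxia fit recovered 22.3% of 1.5-fold, 59.8% of 2-fold and 90% of 4-fold changes, and 5.18% of its calls were false. The slide fit recovered 0.0746%, 0% and 7.27%. Many true changes of 2-fold or less could thus be missed. Alternatives were other scalings and background correction, deposited values, other filters, slides, a replicate block and leaving out arrays. The number of arrays limits the precision.

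Both groups have replicates numbered 1 to 3, but no label says that these numbers pair fetuses.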

Additional observations from a re-analysis of the deposited data

Results flagged for a closer look

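Both DCN probes had 1 control array far from the other 3. Control replicate 2 had a level of 1.23 at DCN probe 1 and of -0.56 at DCN probe 2, while the other control arrays lay between 2.01 and 2.09 and between 0.38 and 0.41. The gap to the nearest array, as a share of the group's range, exceeded the critical value of Dixon's test at 95%. Of 18 sets of control values examined, 2 exceeded it, and chance gives this in about 5% of sets, 0.9 of 18. The 2 probes read the same transcript on the same arrays and are not independent of each other.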

How the results depend on the processing

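The differences of the 4 genes at their first probes kept their sign in all alternatives run and moved by less than 1 pooled SD. They ranged from -0.87 to -0.61 for TIMP1 (16 alternatives), from -1.33 to -0.86 for S100A4 (15), from -1.08 to -0.45 for COL3A1 (16) and from -0.49 to -0.09 for DCN (16). For DCN the pooled SD, 0.39, was larger than the difference of -0.28, so a move to 0 would also have stayed within it. The replicate block gave the same differences as leaving out control replicate 4, so these alternatives are not separate. At COL3A1 probe 3 and DCN probe 2 the sign turned against control slide 2 alone and without hypoxia replicate 1. The count of 2 probes past the adjusted threshold between hypoxia and control was 0 with quantile normalization, with the 75th percentile over probes well above background on all 7 arrays and with no filter on dim probes. It was 35 with normexp, 10 with the deposited values, 232 against control slide 2 alone, 4 against control slide 3 alone and 25 with probes well above background on all 7 arrays. Leaving out each array gave 0 to 6. The count of 2 between control slides was 5 with quantile normalization, 23 with normexp and 393 with the deposited values, and 0 to 0 on leaving out each array, where the lone array of a slide is assumed to vary like the others. The cause of these changes was not tested. None of the 57 list genes passed in any alternative, these having been added for the lists after the data were seen.

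With a replicate block the count was 0, and 2132 probes had an unadjusted p under 0.05, against 1990 without it. Deviations of same-numbered fetuses correlated at 0.121, 0.0878 and 0.107, and each hypoxia array matched its own number best, a hint from the data and not from the design, so the numbers were not taken as pairs. With slide as a random block (estimated correlation -0.0318) the count was 2.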
